A study of Triticum aestivum with 12 samples.

Results

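In crowns of the wheat cultivar Jing411, 42 of 128497 gene models met a rule for transcripts that stand high in plants that were cold acclimated and then frozen and low in every other treatment. The rule was applied to raw read counts. All 3 libraries of the acclimated and frozen group had to hold 10 or more counts, the highest of them less than 3 times the lowest, and the mean of the other 9 libraries had to be at most 0.1 of the lowest. A pair of stretches on chromosomes 7A and 7D was left out by the rule, but 0 models there met its limits. RNA sequencing covered 4 groups of 3 biological replicates each, and the extraction protocol names the crown, the compact stem at soil level that bears the shoot meristem, as the source of RNA, while the tissue label reads differently. LTAF plants spent 28 days at 4 °C and then 24 hours at -5 °C. LTA plants had the 28 days at 4 °C alone. NTGF plants spent 28 days at 20 °C and then 24 hours at -5 °C, and NTG plants had the 28 days at 20 °C alone. All groups are of the same cultivar.

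Winter cereals survive frost through the crown, since leaves and roots can be replaced from its meristems. During cold acclimation, weeks of low but not freezing temperature change membranes, sugars and the stock of protective proteins, and tolerance of later freezing increases. Freezing itself adds loss of cell water to ice outside the cells, so genes that need both acclimation and freezing are of interest. The identifiers of the table are paired with no gene names: of the 128497 models, 0 matched the wheat reference table, so no member has a known role here and none is given. For the same reason the labelled tissue could not be checked against marker genes. The annotation marks models of low confidence by LC at the end of the identifier, and all others are of high confidence (HC). The letter U stands for sequence not placed on a chromosome. In bulk RNA, fewer cells of a type and less RNA per cell cannot be told apart.

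Library totals ran from 17871036 to 21491305 counts. In the 42 members NTGF replicate 3 stood apart from the other NTGF replicates, so results that rest on it are given with and without it. Without LTAF replicate 2 the same rule gave 166 models, and without NTGF replicate 3 it gave 113, in both cases with all 42 members among them. No member can fail the rule when an LTAF library is left out, so the first case was fixed in advance. With another group in the place of LTAF, the rule gave 8 models for LTA, 65 for NTGF and 240 for NTG. Counts were tested in edgeR's quasi-likelihood fit of all 12 libraries, over 69693 models that passed a filter on low counts, and a model under an adjusted p of 0.05 was called. All 42 members passed that filter, through the group where they are high.

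The description "present only in frozen acclimated crowns" did not hold for these models. Of the 42, 0 were without a count in all 9 other libraries. In 18 members NTG had no count, in 3 NTGF had none, and in 1 LTA had none. An LTA count was present in all 3 libraries for 26 members, an NTGF count for 14 and an NTG count for 9. A stricter form of the rule, in which the highest of the other 9 libraries rather than their mean stays at or under 0.1 of the lowest LTAF count, kept 2 models. They were TraesCS7A01G065400 and TraesCS6A01G505300LC, singled out after their values were seen. The members are called the LTAF-high models from here on.

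**Figure D1:**
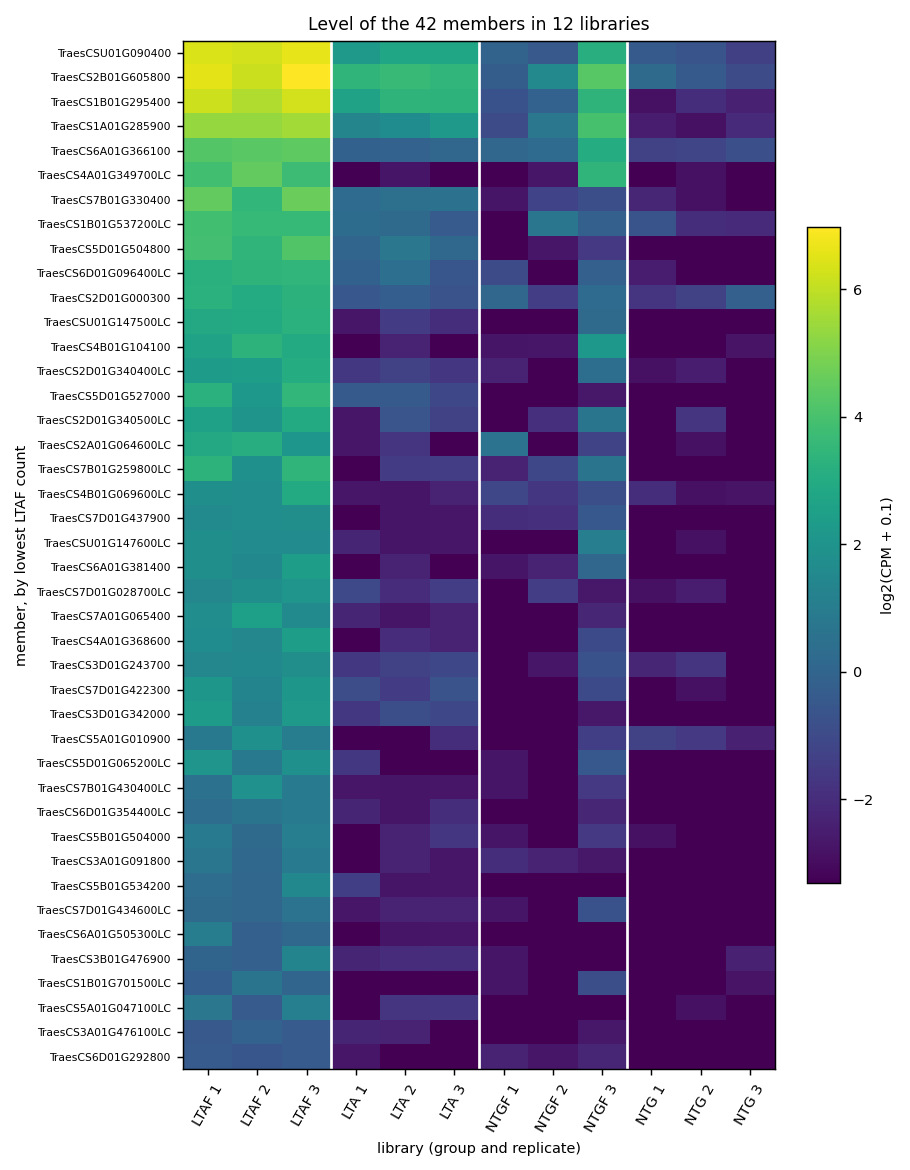
Level of each of the 42 LTAF-high models (rows, ordered by lowest LTAF count) in each of 12 libraries (columns), as log2(CPM + 0.1). Bright cells fill the 3 LTAF columns, and outside them the brightest columns are NTGF replicate 3 and the 3 LTA replicates.

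Summed over the 42 models, the level was 503.3, 432.3 and 587.7 CPM in LTAF replicates 1 to 3, 32.8, 44.0 and 41.7 CPM in LTA, 7.72, 10.8 and 94.8 CPM in NTGF, and 3.76, 3.22 and 2.68 CPM in NTG. CPM are counts brought to the same TMM-scaled library total, TMM being a scaling that sets the bulk of genes equal between libraries. Outside LTAF these sums were lowest in NTG and highest in NTGF replicate 3. They rest on few models, since the 5 models with the most counts held up to 79.4% of member counts in an LTA library. The median model stood at 0.110, 0.150 and 0.157 CPM in LTA, 0.0511, 0 and 0.451 CPM in NTGF, and 0 in each NTG library, so by the median NTGF replicate 2 stood at 0 like NTG. The group means were 508 ± 77.8 CPM in LTAF, 39.5 ± 5.96 in LTA, 37.8 ± 49.4 in NTGF and 3.22 ± 0.539 in NTG (SD, n = 3 each). Without replicate 3 the NTGF mean was 9.26 ± 2.18 CPM (SD, n = 2). As a share of all counts the models held 0.0450% ± 0.00420 in LTAF, 0.00375% ± 0.000600 in LTA, 0.00373% ± 0.00493 in NTGF and 0.000388% ± 0.0000708 in NTG (SD, n = 3 each).

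**Figure D2:**
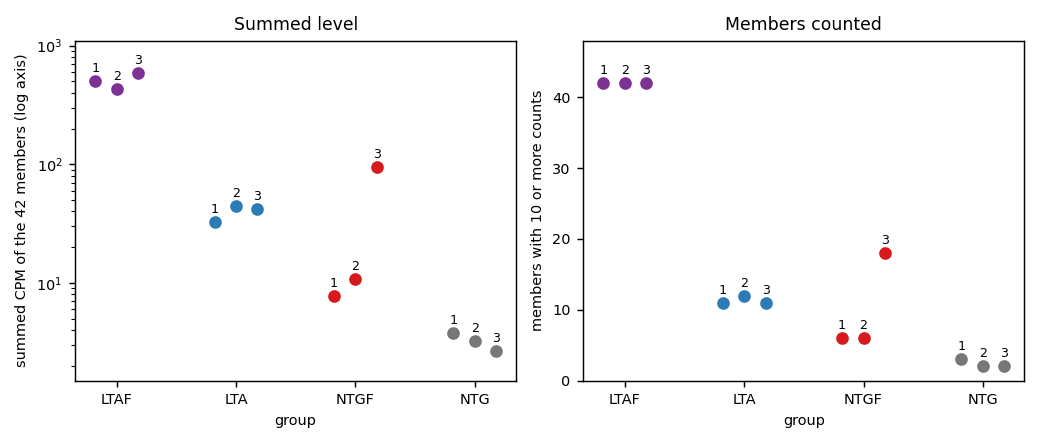
Left, summed CPM of the 42 LTAF-high models per library on a log axis, and right, the number of these models with 10 or more counts. Each point is a library marked with its replicate number. NTGF replicate 3, at 94.8 CPM and 18 models, lies above NTGF replicates 1 and 2, at 7.72 and 10.8 CPM and 6 models each.

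The LTAF counts chose the models, so their height in LTAF is a description and no test. Single LTAF libraries held from 10 to 2037 counts of a model. The mean level in LTAF ran from 0.646 to 98.0 CPM with a median of 3.86. It was under 1 CPM in 2 models and at 10 CPM or more in 10. The 5 models with the most counts held 61.0% to 63.1% of all member counts in an LTAF library. Replicate 3 was the highest LTAF library in 27 models and replicate 2 the lowest in 24. In the fit, 40 of 42 were called higher in LTAF against LTA, where 3.99% of all tested models were. For LTAF against NTGF it was 39 of 42 (20.2% of all), and for LTAF against NTG 42 of 42 (23.5% of all). The rule used these contrasts, and nothing is read from the counts. Leaving out any single LTAF or LTA library took the 40 to between 17 and 39, with 17 without LTA replicate 1 or 3, 19 without LTA replicate 2, 24 and 25 without LTAF replicates 3 and 1, and 39 without LTAF replicate 2. The shares of all tested models called in those fits are not given.

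The most heavily counted LTAF-high models were present at a low level in LTA as well. TraesCS2B01G605800 held 1673, 1262 and 2037 counts in LTAF, 195, 246 and 211 in LTA, 14, 53 and 350 in NTGF, and 28, 17 and 9 in NTG. TraesCSU01G090400 held 1484, 1350 and 1568 counts in LTAF, 82, 131 and 125 in LTA, 17, 12 and 155 in NTGF, and 17, 14 and 6 in NTG. In both models LTA lay above NTG without overlap, and NTGF replicate 3 lay above the LTA libraries. That all LTAF libraries lay above all others was set by the rule. TraesCS1B01G295400 held 1281, 937 and 1262 counts in LTAF, 110, 207 and 190 in LTA, 10, 16 and 182 in NTGF, and 1, 4 and 2 in NTG. TraesCS1A01G285900 held 716, 720 and 754 counts in LTAF, 45, 63 and 87 in LTA, 8, 30 and 276 in NTGF, and 2, 1 and 3 in NTG. Their NTG libraries lay lowest, and NTGF replicate 3 lay within the LTA range for the first and above it for the second.

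Other models had less in LTA. TraesCS6A01G366100 held 325, 358 and 342 counts in LTAF, 15, 17 and 18 in LTA, 19, 21 and 147 in NTGF, and 8, 9 and 10 in NTG. Its LTAF level was 20.1 ± 1.40 CPM (SD, n = 3), and its LTA and NTG libraries did not overlap. TraesCS7B01G330400 held 394, 197 and 402 counts in LTAF, 20, 26 and 26 in LTA, 1, 6 and 8 in NTGF, and 3, 1 and 0 in NTG. Here replicate 2 was the lowest LTAF library, and LTA lay above both NTGF and NTG.

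At the limits on the lowest LTAF count and on the mean of the other libraries the values run on without a gap. TraesCS6D01G292800, with 12, 10 and 11 LTAF counts, and TraesCS3A01G476100LC, with 11, 15 and 11, were the members closest to the minimum of 10. TraesCS4A01G212100, with 12, 12 and 9, and TraesCS5B01G234200LC, with 20, 9 and 16, missed it alone. The widest LTAF spread inside was that of TraesCS7B01G259800LC, at 174, 61 and 172 counts, followed by TraesCS5A01G047100LC at 28, 12 and 34, and 0 models failed on spread alone. The mean of the other 9 libraries came closest to the limit in TraesCS4A01G349700LC and TraesCS2B01G605800, both at 0.099 of the lowest LTAF count. Just outside lay TraesCS1B01G467900LC and TraesCS2A01G226100LC, both at 0.101. On the minimum alone 91 models stayed outside, and 150 had a mean between 0.1 and 0.2 and met the other limits. The raised limit of 0.2 gave 192 models and a lowered one of 0.05 gave 11.

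How the low counts outside LTAF are divided among LTA, NTGF and NTG was not set by the rule, which used their common mean and so held all of them low. The models passed the filter on low counts through LTAF, and the calls among the other groups rest on few counts and on a spread shared with LTAF. LTA against NTG asks whether 28 days of acclimation alone brought up any of these models. By the edgeR test 13 of 42 were called higher in LTA and 0 lower, while 16 had an unadjusted p under 0.05 in either direction and DESeq2 called 14 higher and 0 lower. Of all tested models, 20% were called higher and 18.1% lower. In a fit of LTA and NTG alone 32 of the 42 did not pass the filter, and 9 were called higher. Every LTA library lay above every NTG library in 23 models (29% of all tested models), and every LTA library lay below every NTG library in 0 (31.2% of all). The latter was possible only in the 9 models with a count in every NTG library. In the 18 without an NTG count no fall was possible, so the lack of falls is not read as a result. For LTA over NTG 39 models had a fitted log2 fold change above 0, with a median of 3.04 against -0.06 over all tested models. The median of all models moved by -0.34 with scaling by library totals, and the models' median was then 2.89.

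TraesCS5D01G504800 had the largest fitted fold change. It held 17, 32 and 19 counts in LTA and 0 in each NTG library, beside 264, 186 and 291 counts in LTAF and 0, 1 and 4 in NTGF. LTA was 29.0-fold higher when NTG is set to 3 counts in all (edgeR adjusted p = 0.000219). That setting allows for counting error in the empty group alone, here and below. TraesCS5D01G527000 held 12, 13 and 7 counts in LTA and 0 in each NTG library, 13.7-fold higher at that setting (edgeR adjusted p = 0.000964). It held 168, 78 and 179 counts in LTAF and 0, 0 and 1 in NTGF. Both models lie on chromosome 5D, far apart by identifier number, and in both the groups do not overlap in LTAF, LTA and NTG. TraesCS1B01G295400, whose counts are given above, averaged 8.78 ± 2.38 CPM in LTA and 0.0953 ± 0.0575 CPM in NTG (SD, n = 3 each), a log2 fold change of 6.43 (edgeR adjusted p = 0.00175). TraesCS3D01G342000 held 4, 9 and 7 counts in LTA and 0 in each NTG library, 8.54-fold higher with NTG set to 3 counts (edgeR adjusted p = 0.00213). In the fit of LTA and NTG alone a model that missed the filter gave no value, and all other alternatives kept LTAF libraries. All 8 named models called here kept the call under every alternative that gave a value. Some of them were named for their large called changes. Over all 42 models, leaving out 1 library gave 9 to 12 calls in the place of 13.

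NTGF against NTG asks whether freezing without acclimation brought up any of the LTAF-high models. By the edgeR test 15 of 42 were called higher in NTGF and 0 lower, while 23 had an unadjusted p under 0.05 in either direction and DESeq2 called 19 higher and 0 lower. Of all models tested, 14.2% were called higher and 11.7% lower. The fitted log2 fold change was above 0 in 37 models, with a median of 3.13 against 0.04 over all tested models. In a fit of NTGF and NTG alone 37 of the 42 did not pass the filter, and 0 were called. The 15 calls rest largely on NTGF replicate 3: without it 6 models were called, all of them among the 15, where 13.1% of all tested models were called higher, and the median was 0.71. Without NTG replicate 1, 2 or 3 there were 4 calls in each case. Of the 42 models, 10 had every NTGF library above every NTG library (21.9% of all tested models), and 0 had every NTGF library below (20.2% of all). Here too the latter was possible only in the 9 models with a count in every NTG library, and no fall was possible in the 18 without an NTG count.

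NTGF replicate 3 was the highest of the 3 NTGF libraries in 34 of the 42 models, where it was so in 28.6% of all tested models and in 72.1% of the 2743 other models called higher in LTAF against LTA. It stood at 3 or more times both other NTGF libraries in 29 of 42, against 2.16% of all tested models and 9.55% of those 2743. Where both other NTGF libraries hold 0 counts, 1 count is enough for this, as in TraesCS3D01G342000 with 0, 0 and 1. The rule held the members low in NTGF, and the models set beside them were not matched for count, so these shares are not like for like. It was the highest of all 9 libraries outside LTAF in 24, against 12.1% and 58.1%. In 26 models it held at least 0.1 of the lowest LTAF count. As a share of the mean LTAF level, NTGF replicate 3 ran from 0% to 64.1% with quartiles of 4.21%, 11.2% and 20.0%, so the share was not the same from model to model. For NTGF replicates 1 and 2 the median shares were 0.686% and 0%, and the highest 21.5% and 12.2%. LTA means ran from 0% to 12.9% of the LTAF mean with a median of 5.75%, and NTG means from 0% to 8.72% with a median of 0.194%. No library outside LTAF could reach the lowest LTAF count of a member, since the rule held the mean of these 9 libraries at or under 0.1 of it.

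**Figure D3:**
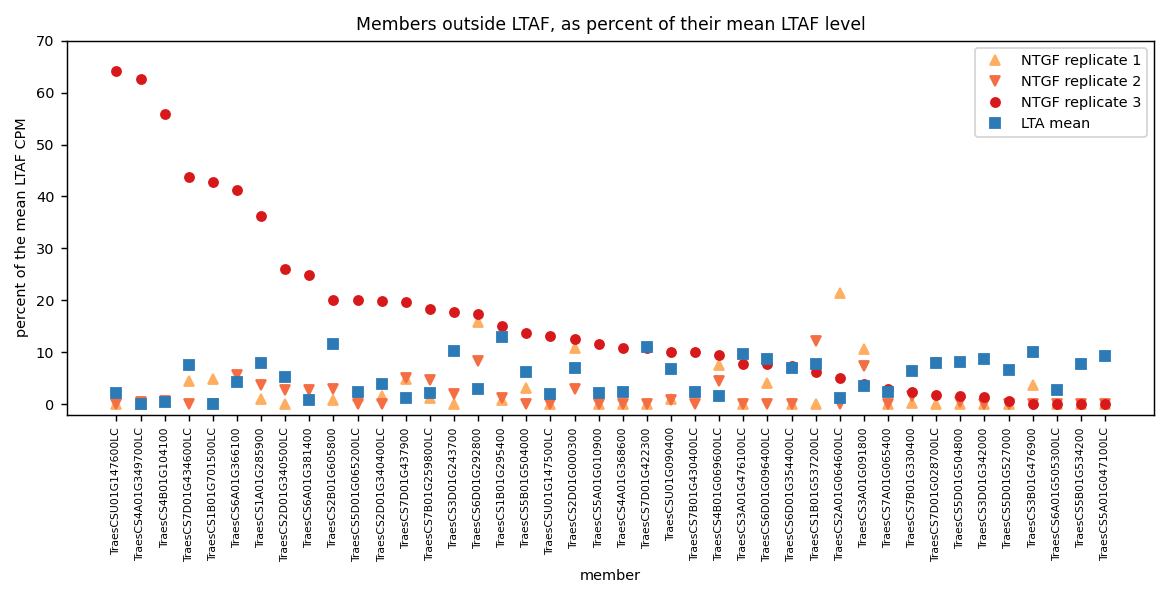
Level of each of the 42 LTAF-high models in NTGF replicates 1, 2 and 3 and in LTA (mean of 3 libraries), as percent of its mean LTAF CPM, ordered by NTGF replicate 3. NTGF replicate 3 runs from 64.1% down to 0%, while the LTA means stay at or under 12.9%.

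In 5 models the highest library outside LTAF exceeded 50% of the lowest LTAF count, and in all 5 it was NTGF replicate 3. TraesCS4A01G349700LC held 256, 397 and 213 counts in LTAF, 0, 1 and 187 in NTGF, 0, 1 and 0 in LTA, and 0, 1 and 0 in NTG. TraesCS4B01G104100 held 106, 175 and 127 counts in LTAF, 1, 1 and 79 in NTGF, 0, 2 and 0 in LTA, and 0, 0 and 1 in NTG. In these models 1 NTGF library lay near the LTAF level and the other NTGF libraries lay at the level of LTA and NTG. Both were called higher in NTGF against NTG (edgeR adjusted p = 0.0308 and 0.0339), with an adjusted p of 0.781 and 0.441 without NTGF replicate 3. TraesCSU01G147600LC held 59, 54 and 49 counts in LTAF, 0, 0 and 36 in NTGF, 2, 1 and 1 in LTA, and 0, 1 and 0 in NTG. TraesCS7D01G434600LC, at 9 counts in NTGF replicate 3, and TraesCS1B01G701500LC, at 8, were the remaining ones, against lowest LTAF counts of 17 and 13. All 5 are named because they are few.

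TraesCS7D01G437900 held 3, 3 and 11 counts in NTGF and 0 in each NTG library, 7.41-fold higher with NTG set to 3 counts (edgeR adjusted p = 0.00608). It held 50, 57 and 54 counts in LTAF and 0, 1 and 1 in LTA. Without NTGF replicate 3 this call held (edgeR adjusted p = 0.00975), at 3.83-fold higher by the same setting. TraesCS7B01G259800LC held 2, 7 and 26 counts in NTGF and 0 in each NTG library, 15.3-fold higher by that setting (edgeR adjusted p = 0.0294). Without NTGF replicate 3 its edgeR adjusted p was 0.0763, and the fold was 5.74. TraesCS2A01G064600LC differed in that NTGF replicate 1 was the highest, with 28, 0 and 6 counts in NTGF against 0, 1 and 0 in NTG (edgeR adjusted p = 0.0325). Its groups overlap, 1 library holds most of its NTGF counts, and it was named after its values were seen.

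**Figure D4:**
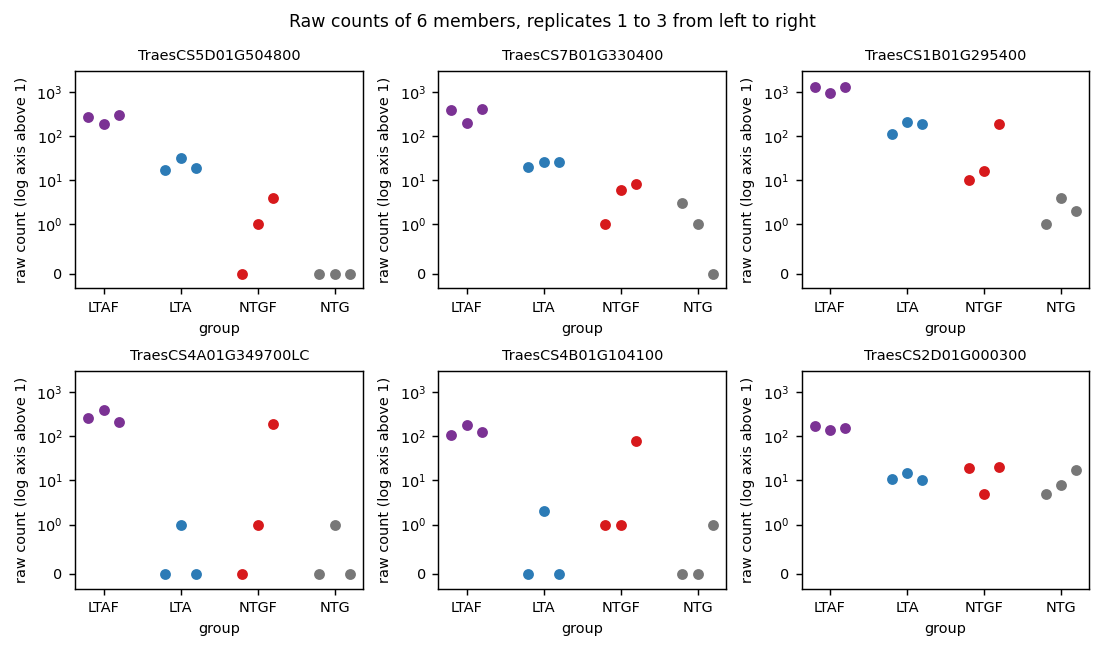
Raw counts of 6 LTAF-high models by group, with replicates 1 to 3 from left to right in each group and a log axis above 1 count. The upper row has LTA above NTG without overlap, the first models of the lower row have NTGF replicate 3 far above the other NTGF libraries, and TraesCS2D01G000300 has LTA, NTGF and NTG between 5 and 20 counts.

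NTGF against LTA sets freezing alone beside acclimation alone. Of the 42 LTAF-high models 5 were called higher and 4 lower in NTGF, where 19.8% of all tested models were called higher and 20.3% lower, and 22 had a fold change above 0. In a fit of NTGF and LTA alone 32 of the 42 did not pass the filter, and 0 were called higher and 2 lower. TraesCS5D01G527000 (0, 0 and 1 counts in NTGF, 12, 13 and 7 in LTA), TraesCS3D01G342000 (0, 0 and 1 in NTGF, 4, 9 and 7 in LTA) and TraesCS5D01G504800 (0, 1 and 4 in NTGF, 17, 32 and 19 in LTA) fell, with log2 fold changes of -4.55, -3.87 and -3.63 and edgeR adjusted p of 0.00292, 0.0077 and 0.00156. TraesCS7B01G330400 was the fourth, at -2.20 (edgeR adjusted p = 0.00903). These 4 calls held under every alternative that gave a value. The fit of NTGF and LTA alone, with 2 lower calls, did not give a value for all 4. The rises included TraesCS4A01G349700LC, at 7.20 (edgeR adjusted p = 0.0275), TraesCS4B01G104100, at 5.19 (edgeR adjusted p = 0.038), and TraesCS7D01G437900, at 2.92 (edgeR adjusted p = 0.0215). Without NTGF replicate 3 there were 0 rises and 11 falls, where 16.7% of all tested models were called higher and 17.2% lower, and the median log2 fold change of the 42 models was -2.08 against 0.42 with it. Leaving out LTA replicate 1 or 2 gave 0 rises by the edgeR test and leaving out LTA replicate 3 gave 1. With all libraries 14 of the 42 had an unadjusted p under 0.05 in either direction, and DESeq2 called 7 higher and 6 lower.

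The interaction sets the freezing response of acclimated plants, LTAF against LTA, beside that of unacclimated plants, NTGF against NTG, on the log2 scale. The rule used LTAF, so this is a description. Of the 42 LTAF-high models 3 were called higher and 0 lower, where 5.12% of all tested models were called higher and 5.91% lower. The interaction was above 0 in 34, with a median of 1.32 against -0.05 over all models. Without NTGF replicate 3 it was above 0 in all 42, with a median of 3.27, and 6 were called higher. In that fit 6.84% of all tested models were called higher and 7.75% lower. Where NTGF and NTG hold 0 counts the interaction is LTAF against LTA alone, which the rule held above 0. With all libraries 3 also had an unadjusted p under 0.05, and DESeq2 called 3 higher and 0 lower. The 3 called ones are named because they are few. TraesCS2D01G000300 held 167, 139 and 155 counts in LTAF, 11, 15 and 10 in LTA, 19, 5 and 20 in NTGF, and 5, 8 and 17 in NTG (interaction 2.94, edgeR adjusted p = 0.026). TraesCS4B01G069600LC held 59, 56 and 124 counts in LTAF, 1, 1 and 2 in LTA, 7, 4 and 8 in NTGF, and 4, 1 and 1 in NTG (3.99, edgeR adjusted p = 0.0344). TraesCS5A01G010900 held 30, 62 and 32 counts in LTAF, 0, 0 and 3 in LTA, 0, 0 and 5 in NTGF, and 8, 6 and 2 in NTG (6.57, edgeR adjusted p = 0.0202). In the last of these, NTG lay above LTA replicates 1 and 2 and above NTGF replicates 1 and 2. Leaving out 1 library gave between 0 and 6 calls, with 0 without LTA replicate 1 and 1 without LTA replicate 3, LTAF replicate 1 or NTG replicate 1.

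By identifier, the LTAF-high models were spread over every chromosome group, and low-confidence models were common among them. They were 23 HC and 19 LC models, the LC share of 45.2% standing beside 18.1% among the 67621 models whose highest group mean count lies in the same range. Levels within that wide range were not matched, so the shares may differ through level. Subgenomes A, B and D held 12, 12 and 15, and 3 were unplaced, 7.14% beside 1.33% of those 67621 models. The largest number on 1 chromosome was 4, on 7D. Only 4 models had another member within 1000 identifier units in the same class, and the number was the same for 500 and 2000 units. They form 2 pairs of consecutive identifiers. In the first, TraesCS2D01G340400LC held 90, 91 and 134 counts in LTAF, 4, 6 and 4 in LTA, 2, 0 and 22 in NTGF, and 1, 2 and 0 in NTG. TraesCS2D01G340500LC held 103, 69 and 124 in LTAF, 1, 11 and 6 in LTA, 0, 3 and 27 in NTGF, and 0, 5 and 0 in NTG. Both have NTGF replicate 3 as the highest library outside LTAF. In the second, among unplaced models, TraesCSU01G147500LC held 130, 136 and 151 counts in LTAF, 1, 5 and 3 in LTA, 0, 0 and 19 in NTGF and 0 in each NTG library, beside TraesCSU01G147600LC above. Models next to each other can be pieces of 1 transcript, which was not tested.

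The LTAF-high models were chosen by their counts in LTAF and in the other libraries. Models next to them were chosen by identifier among models that passed the filter on low counts, and were tested in the same fit. A neighbour can pass that filter through LTAF alone, so this set is not free of selection on counts. TraesCS5A01G047200LC, for example, held 10 or more counts in every LTAF library and fewer than 10 in every other library. All tested models passed the same filter. For the 39 placed models, the nearest tested model of the same class on each side gave 76 neighbours. In LTAF against LTA, 7 of the 76 rose and 1 fell, or 9.21% and 1.32%, where 3.99% of all tested models were called higher and 1.92% lower. Their median log2 fold change was 0.07, against -0.03 over all tested models. Of the 28 neighbours with the next identifier 5 rose, and of the 48 farther ones 2 rose, with medians of 0.56 and -0.15. This split was not planned, and 22 of the 28 are HC models, so it does not separate distance from class. With 3 neighbours on each side 13 of 227 rose, or 5.73%. Of 44 HC neighbours 4 rose and 0 fell, where 4.35% and 1.67% of tested HC models did, and of 32 LC neighbours 3 rose and 1 fell, where 2.28% and 3.13% of tested LC models did. In the interaction 1 HC neighbour was called higher and 2 lower (4.98% and 6.13% of tested HC models), and 1 LC neighbour higher and 2 lower (5.77% and 4.89% of tested LC models). In LTAF against NTGF, 15 of the 76 neighbours rose and 12 fell, or 19.7% and 15.8%, where 20.2% and 19.6% of all tested models did. The count of 7 was 1 or 2 when any library other than LTAF replicate 2 was left out among LTAF and LTA, and 10 without LTAF replicate 2. The shares of all tested models called in those fits are not given.

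The 4 neighbours with the largest rises at 1 CPM or more all had at most 3 counts in any NTG library. TraesCS7A01G065300, next to TraesCS7A01G065400, held 54, 60 and 35 counts in LTAF and 4, 3 and 2 in LTA, with 0, 8 and 27 in NTGF and 0 in each NTG library (log2 fold change 4.15 for LTAF against LTA, edgeR adjusted p = 0.0363). The member beside it held 56, 98 and 46 counts in LTAF, 2, 1 and 2 in LTA, 0, 0 and 2 in NTGF and 0 in each NTG library. TraesCS6A01G366400, which follows TraesCS6A01G366100 by 300 identifier units, held 78, 102 and 101 counts in LTAF and 5, 6 and 8 in LTA, with 14, 69 and 204 in NTGF and 1, 3 and 3 in NTG (4.03, edgeR adjusted p = 0.018). In that neighbour NTGF replicate 3 exceeded every LTAF library. TraesCS7B01G330600, 200 units after TraesCS7B01G330400, held 92, 47 and 116 counts in LTAF and 4, 27 and 18 in LTA, with 0, 1 and 6 in NTGF and 1, 0 and 0 in NTG (2.57, edgeR adjusted p = 0.0396). TraesCS5A01G047200LC, next to TraesCS5A01G047100LC, held 35, 17 and 47 counts in LTAF and 8, 9 and 7 in LTA, with 0, 0 and 1 in NTGF and 0 in each NTG library (2.21, edgeR adjusted p = 0.0342). Like the member beside it, at 28, 12 and 34 counts in LTAF and 0, 4 and 4 in LTA, it had its lowest LTAF count in replicate 2. The neighbour that fell, TraesCS6D01G095700LC, held 56, 83 and 42 counts in LTAF and 123, 119 and 141 in LTA, with 71, 88 and 69 in NTGF and 110, 116 and 98 in NTG (-0.93, edgeR adjusted p = 0.0281).

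**Figure D5:**
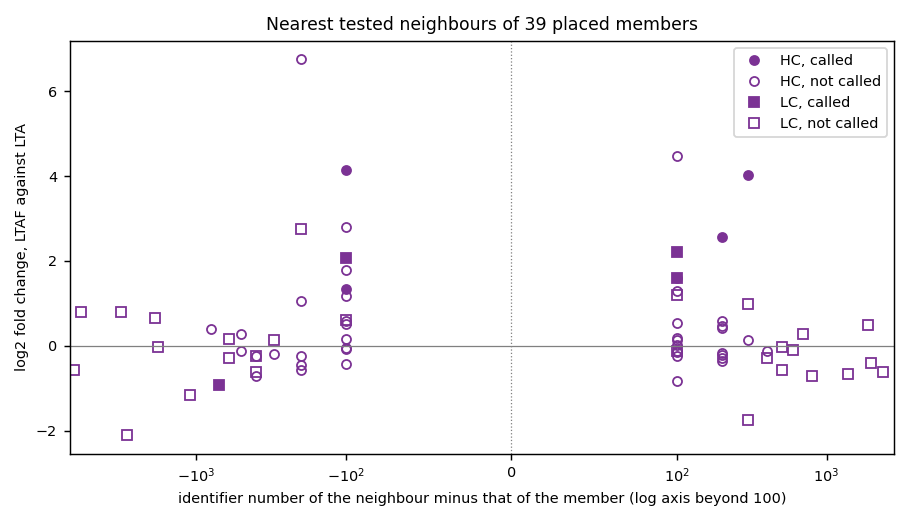
Log2 fold change of LTAF against LTA (vertical axis) for the 76 nearest tested neighbours of the 39 placed LTAF-high models, by the distance in identifier number from the member (horizontal axis, log beyond 100). Filled symbols are called at an adjusted p under 0.05, circles are HC and squares LC models, and 7 filled symbols lie above 0 and 1 below.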

How the data were processed

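The authors deposited raw read counts per gene model, 1 column per library, per the file headers. They are whole numbers with no normalization. The sources used here do not give the aligner, counter, build, annotation release, use of strand or treatment of reads that match several near-identical subgenome copies, so counts of such copies, of overlapping and of antisense models are uncertain. Groups and columns were matched by the labels. In edgeR 4.0.16 under R 4.3.3, models passed filterByExpr at a minimum count of 10, TMM set the scaling, and all 12 libraries entered 1 fit of 4 group means, tested by the robust quasi-likelihood F test and Benjamini-Hochberg adjustment over 69693 models. Levels in CPM use the TMM-scaled library size. DESeq2 1.42.0 was an alternative. The steps were tested on simulated data. Depth was 17871036 to 21491305 counts. Where a group held 0 counts, the fold was computed with 3 counts summed over its libraries. This allows for counting error in that group alone, and not for error in the group with counts or for spread between replicates.

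The members and lists were chosen with earlier results of these data known. Named members were the 8 highest in mean LTAF CPM, those beside another member, up to 3 called per direction in each comparison without LTAF, those nearest each limit, and up to 6 without a count outside LTAF, of which there were 0. Models named outside this rule were chosen after their values were seen. Named neighbours were the 4 largest called changes per direction at 1 CPM or more. Lists by gene name, promoter motifs and marker genes could not be applied, since 0 identifiers were annotated, and no sequence is printed.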

Additional observations from a re-analysis of the deposited data

Results flagged for a closer look

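In edgeR's interaction of freezing with acclimation 3 of the 42 LTAF-high models were called higher, where 5.12% of all tested models were: TraesCS2D01G000300 (log2 difference 2.94), TraesCS4B01G069600LC (3.99) and TraesCS5A01G010900 (6.57). The rule that chose them used the LTAF counts, so this describes them and is no test of them. With 1 library left out there were 0 to 6 such calls.

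The 76 neighbours were not chosen by the rule but had to pass the filter on low counts. The same test called 2 of them higher and 4 lower, or 2.63% and 5.26%. Of all tested models it called 5.12% higher and 5.91% lower. The higher ones were TraesCS5A01G010800 (2.64, edgeR adjusted p = 0.0147), next to TraesCS5A01G010900, with 205, 90 and 241 counts in LTAF, 74, 127 and 70 in LTA, 22, 23 and 18 in NTGF and 96, 54 and 77 in NTG, and TraesCS5D01G067100LC (2.33, edgeR adjusted p = 0.00536). The lower ones were TraesCS1B01G701900LC (-3.57), TraesCS5D01G064800LC (-1.90), TraesCS5D01G504600 (-1.11) and TraesCS4A01G368800 (-1.06), with edgeR adjusted p of 0.011, 0.0324, 0.0165 and 0.0177. These 6 are named because they are few.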

How the results depend on the processing

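The number of LTAF-high models was 11 and 192 with a limit of 0.05 and 0.2 on the other libraries, 2 with the highest in place of the mean, 27 with an LTAF spread under 2, and 38 to 166 with 1 library left out. Counts scaled by TMM gave 54, of which 39 were members, and then LTAF, LTA and NTG shares of 0.0557%, 0.00469% and 0.000719%, and sums of 49.4 CPM in LTA and 5.98 in NTG. With 1 library left out the sums were 37.2 to 42.9 CPM in LTA, 9.26 to 52.8 in NTGF and 2.95 to 3.49 in NTG, and the shares 0.0427% to 0.0469% in LTAF, 0.00355% to 0.00410% in LTA, 0.000882% to 0.00522% in NTGF and 0.000354% to 0.000425% in NTG.

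Leaving out 1 library gave 17 to 39 calls for LTAF against LTA, 35 to 42 for LTAF against NTGF, 42 for LTAF against NTG, 9 to 12 for LTA against NTG, 4 to 18 for NTGF against NTG, 0 to 8 higher and 4 to 11 lower for NTGF against LTA, and 0 to 6 for the interaction. For alternatives other than the fit without NTGF replicate 3, the share of all tested models called is not given, here or above. Whether members gained or lost calls more than other models cannot be read from these counts. NTGF against NTG gave 6 calls without the filter, 7 with the replicate block and 0 in a fit of these groups alone, in which 37 of the models were not tested. NTGF against LTA gave 2 higher without the filter, 2 with the replicate block, and 0 higher and 2 lower in a fit of these groups alone, with 32 not tested. The replicate block moved no other member count by over 1.5 times. Same-numbered replicates of different groups did not deviate together (correlations of -0.437 to 0.201), so they were not treated as pairs. The LTAF comparisons, LTA against NTG and the interaction kept their member counts within 1.5 times under library totals, RLE size factors, no filter and DESeq2.

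Neighbours higher in LTAF against LTA numbered 4 without the filter, 12 with DESeq2, 3 with the replicate block, 12 with these groups alone, 13 with 3 on each side, 4 for HC and 3 for LC, and 1 to 10 with 1 library left out. Neighbours lower there numbered 0 with the block, with these groups alone and for HC, 5 with 3 on each side, and 0 to 3 with 1 left out. For LTAF against NTGF they were 15 to 19 higher and 10 to 16 lower with 1 left out. In the interaction they were 6 higher with library totals, 5 with DESeq2 and 2 to 7 with 1 left out, and 2 lower with the block and 1 to 7 with 1 left out. For the altered fits the shares of all tested models called are not given here, so these counts have no background to be read against. The causes were not tested. The fit of only the groups compared gives no interaction, so that alternative was not run for it.

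Of 913 alternative values for 20 named models in 4 comparisons, 754 kept the call or its absence, 128 lost the call and 29 gained it. The 754 include changes of sign without a call in either fit. TraesCS2D01G340400LC, for example, went from 0.82 to -2.10 in NTGF against LTA without NTGF replicate 3. A further 2 values reversed and were called in the alternative fit alone, both in NTGF against LTA without NTGF replicate 3. They were TraesCS1A01G285900 at -1.76 (edgeR adjusted p = 0.0119) and TraesCSU01G147500LC at -4.70 (edgeR adjusted p = 0.0222). With 1 library left out these ranged from -1.76 to 1.33 and from -4.70 to 1.71. Depth limits the low groups: LTA held 1 to 3 counts in 9 of the 42 models, NTGF in 6 and NTG in 12.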
